A study of Homo sapiens with 41 samples.

Results

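RAD21, the kleisin subunit that closes the cohesin ring, was mapped by chromatin immunoprecipitation and sequencing in T47D cells before and after hyperosmotic stress. T47D is an established human breast carcinoma line of the luminal, oestrogen receptor positive type. The comparison uses 6 of the 41 samples of the series, chosen by their titles: 3 RAD21 libraries without stress and 3 RAD21 libraries after 1 h in 110 mM NaCl, all without triptolide. Every cell had first been held in steroid-depleted medium and then overnight without serum, so the untreated libraries are from hormone-starved, serum-starved cells too. The treated cells then received NaCl, and the untreated cells were harvested without it. The 6 titles and their treatment tags name the same conditions, and their NaCl concentration is used here although the series' design text gives a slightly lower one. The titles number replicates 1 and 2 of each group, and a later submission added the library called replicate 3 here to both groups. The series holds 29 peak lists in all, for CTCF, RAD21 and RNA polymerase II (Pol II), and each of the 6 lists used here was called on a single library. The CTCF and Pol II lists serve below only as maps against which the RAD21 sites are described.

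Cohesin is a ring-shaped complex that encircles DNA, holds sister chromatids together and extrudes chromatin loops. In interphase it slides along chromatin until CTCF bound to DNA stops it, so RAD21 peaks in most cell types coincide with CTCF sites and mark the anchors of loops. Further cohesin is found where it is loaded, at active promoters and enhancers. The series was designed to follow chromatin organisation and transcription through salt stress, and the RAD21 libraries address where cohesin is detected after 1 h of it.

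Promoter-proximal sites show what a RAD21 site lost or kept under stress looks like at the level of bases. The 4 lost and 4 kept sites below had the highest enrichment ranks among those whose summit lay in a promoter window of the RefSeq table (build GRCh38.p14, 250 bases before to 50 after a start). The table holds a start for 15812 of 19974 protein-coding genes. Each sequence runs 5′ to 3′ on the strand of the gene, covers up to 60 bases on either side of the summit, and ends no further than 30 bases past the start, so that the summits of the SDC1 and ALOXE3 sites fall just outside it. Capitals mark matches to CC, any 3 bases, AG, any 2 bases and GGC, a short form of the core of the CTCF motif that was searched on both strands. The first 4 are lost sites, at PRDM1 (a transcriptional repressor, chr6:106086301-106086365, plus strand), RPS26 (a protein of the small ribosomal subunit, chr12:56041668-56041738, plus), SDC1 (the proteoglycan syndecan 1, chr2:20225446-20225499, minus) and ALOXE3 (an epidermal lipoxygenase, chr17:8118887-8118935, minus). The others are kept sites, at DHX8 (an RNA helicase of splicing, chr17:43483725-43483791, plus), the non-coding LINC02551 (chr11:130862081-130862153, minus), LOC105369808 (chr12:65556844-65556941, plus) and CBLN2 (a secreted synapse organiser, chr18:72544374-72544493, minus).
PRDM1: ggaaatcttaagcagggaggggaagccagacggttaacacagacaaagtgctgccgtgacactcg
RPS26: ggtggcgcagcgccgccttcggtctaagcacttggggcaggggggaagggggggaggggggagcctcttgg
SDC1: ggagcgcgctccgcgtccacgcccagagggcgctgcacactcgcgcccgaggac
ALOXE3: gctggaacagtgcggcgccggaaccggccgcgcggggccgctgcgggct
DHX8: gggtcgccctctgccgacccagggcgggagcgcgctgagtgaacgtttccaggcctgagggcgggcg
LINC02551: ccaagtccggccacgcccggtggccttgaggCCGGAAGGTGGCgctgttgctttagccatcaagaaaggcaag
LOC105369808: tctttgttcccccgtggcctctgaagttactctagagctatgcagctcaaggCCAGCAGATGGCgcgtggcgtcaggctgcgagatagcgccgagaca
CBLN2: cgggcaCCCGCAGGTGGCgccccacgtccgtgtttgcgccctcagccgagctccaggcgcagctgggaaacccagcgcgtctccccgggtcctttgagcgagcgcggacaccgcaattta
The PRDM1 site had folds of 22.6, 25.1 and 15.0 over background in untreated replicates 1 to 3 and no RAD21 peak at 1 h. CTCF was called there in 3 untreated and 0 of the 1 h CTCF libraries. PRDM1 was the exception among the lost sites shown: CTCF was called at 1 h in 2 libraries at RPS26, 3 at SDC1 and 3 at ALOXE3. The CBLN2 site had folds of 30.2, 23.2 and 23.2 untreated and 13.3, 19.1 and 12.1 at 1 h, with CTCF in all 6 CTCF libraries. The letters were present in the full 300-base window of each of the 4 kept sites, in that of DHX8 outside the stretch shown, and in none of the 4 lost ones. Over all such windows they occurred in 10.6% (3700 of 34961). They occurred in 25.7% of the windows that held the summit of a lost site (76 of 296), in 44.7% of those with a site that some 1 h libraries kept (159 of 356) and in 54.6% of those with a site kept in every library (107 of 196). Median GC content was 68.3%, 71.5% and 67.0% in these 3 sets and 58.7% over all windows. These are counts of letters, not of bound sites, and windows without them may hold other forms of the motif. Over all sites of these 3 classes, in and outside windows, 83.9, 94.3 and 99.2% had CTCF in all 3 untreated CTCF libraries. Untreated RAD21 enrichment rose in the same order, and the windows were not compared at equal enrichment.

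Far fewer RAD21 peaks were called after 1 h of NaCl, and the 2 groups of libraries did not overlap. On chromosomes 1 to 22 and X the untreated lists held 18297, 13762 and 24931 peaks in replicates 1 to 3, and the 1 h lists held 4761, 7843 and 6630. The longest 1 h list was thus shorter than the shortest untreated list. The mean log2 number was 14.17 ± 0.43 (SD, n = 3) untreated and 12.62 ± 0.37 (SD, n = 3) at 1 h, a difference of -1.55, with p = 0.1 in a 2-sided exact permutation test, the smallest p that 3 libraries against 3 allow. The labels do not say whether replicates were separate cultures, so these p-values measure the spread between libraries, which may be technical. In a population of cells, fewer cells with cohesin at a site and less cohesin there per cell cannot be told apart. Peaks covered 6.34, 5.06 and 10.8 Mb of the genome without stress, and 1.38, 2.72 and 2.33 Mb after it. The peaks that were called also had lower enrichment over the caller's background, with a median fold of 8.47, 7.38 and 7.92 untreated and 7.00, 7.35 and 6.52 at 1 h (exact permutation p = 0.1, groups not overlapping). The highest fold of a list was 53.7, 54.7 and 53.2 untreated, and 35.1, 52.4 and 35.0 at 1 h, where replicate 2 stood level with the untreated libraries.

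The lists give no read totals, and the nearest value to depth was the genome-wide background pileup that the deposited fold and p-values imply. It was 0.53, 0.75 and 1.51 untreated and 1.05, 0.78 and 2.13 at 1 h (mean difference 0.388, exact permutation p = 0.5, 2-sided), and in no replicate was it lower at 1 h than without stress. The estimate rests on the 10.9 to 32.4% of sampled peaks per library that share this most common value, and most peaks allow several values. No control is stated, so the pileup need not follow the depth of the RAD21 library, and an effect of depth was not tested. Peaks of Pol II, used as a check of the cell type, covered the whole span of PGR, GATA3, FOXA1 and KRT19 in both untreated Pol II libraries and 70.7 and 68.5% of ESR1, the oestrogen receptor. They covered 0.475 and 2.99% of the leukocyte gene PTPRC and 0.706 and 0.431% of the neuronal gene SNAP25, but also 43.8 and 24.0% of the fibroblast collagen gene COL1A1, and 0% of the luminal keratin gene KRT18.

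The shortening of the lists was larger for RAD21 than for CTCF in each replicate, at a test that could go no lower. CTCF lists held 59843, 43835 and 38571 peaks untreated and 35374, 34205 and 22018 at 1 h. In replicates 1 to 3 the RAD21 lists at 1 h held 26.0, 57.0 and 26.6% of the untreated number, and the CTCF lists 59.1, 78.0 and 57.1%. The log2 ratios were -1.94, -0.81 and -1.91 for RAD21 and -0.76, -0.36 and -0.81 for CTCF. Replicate 2 had the smallest change for both proteins. The mean ratios, -1.55 ± 0.64 (SD, n = 3) and -0.64 ± 0.25 (SD, n = 3), differed by -0.91 (exact permutation p = 0.1, 2-sided, the smallest possible). The ratios of RAD21 replicate 2 and CTCF replicate 3 nearly touched, and with −log10 q of at least 5 the difference was -0.87 (exact permutation p = 0.2). Each ratio sets libraries of the same number against each other, which the labels do not state to be pairs. The RAD21 precipitations used magnetic beads and those of CTCF agarose beads, per the labels, so the 2 proteins differ in protocol as well.

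**Figure D1:**
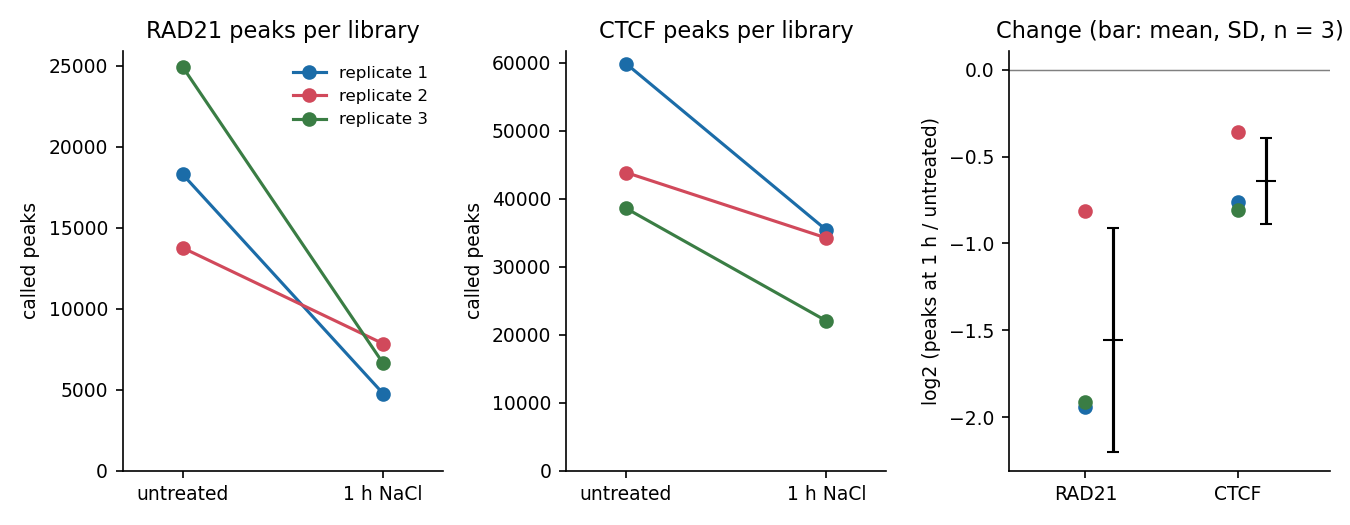
Called peaks per library on chromosomes 1 to 22 and X for RAD21 (left) and CTCF (middle), with lines joining libraries of the same replicate number, and the log2 ratio of peak number at 1 h over untreated (right; points are replicates, bars the mean and SD, n = 3). The RAD21 ratios were -1.94, -0.81 and -1.91, each lower than the CTCF ratio of the same replicate.

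Sites absent from every 1 h library and sites present in all of them were similar in number. Peaks of the 6 lists were merged, by an overlap of 1 bp, into 29711 sites. A site is called lost here when it was in all 3 untreated and no 1 h list, kept when it was in all 6, partly kept when it was in all untreated and 1 or 2 of the 1 h lists, and gained when it was in no untreated and all 1 h lists. Lost sites numbered 3271 (11% of all sites), kept sites 3482 (11.7%) and gained sites 2 (0.00673%). Of the 10098 sites shared by all untreated libraries, 32.4% were lost, 33.1% (3345) partly kept and 34.5% kept. The partly kept sites were uneven between the 1 h libraries: 1419 were in replicate 2 alone, 464 in replicate 3 alone and 81 in replicate 1 alone. A further 985 were in replicates 2 and 3, 200 in 1 and 3, and 196 in 1 and 2. Replicate 1 of the 1 h group, the shortest list, held 39.2% of the shared sites, replicate 3 held 50.8% and replicate 2, the longest, held 60.2%. The classes depend on the lists behind them: without untreated replicate 2, the shortest untreated list, 7630 sites counted as lost and 3721 as kept, with fold enrichment of at least 5 the counts were 2864 and 2694, and without untreated replicate 3 there were 17 gained. When every list was limited to its 4761 strongest peaks, 357 sites were lost, 1902 kept and 227 gained.

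What remained at 1 h followed the enrichment of RAD21 before stress. Each shared site was ranked by its mean percentile of fold enrichment over the 3 untreated lists, and the sites were divided into quintiles. In the weakest quintile 6.14, 33.0 and 10.3% of sites were called in 1 h replicates 1, 2 and 3, a mean of 16.5 ± 14.5% (SD, n = 3). The next quintiles had means of 30.7 ± 12.5%, 49.1 ± 11.1% and 67.2 ± 10.4% (SD, n = 3). In the strongest quintile 79.8, 91.9 and 88.8% were called, a mean of 86.8 ± 6.32% (SD, n = 3). The share was higher in each quintile than in the one below it in all 3 libraries. Lost sites made up 64.0% of the weakest quintile and 5.20% of the strongest, and kept sites 3.81 and 77.4%. Seen from the values, the median untreated fold enrichment of lost sites was 8.50, 6.85 and 7.98 in untreated replicates 1 to 3, that of partly kept sites 11.1, 8.60 and 10.4, and that of kept sites 17.0, 13.2 and 15.3. Weak peaks also recurred less often among untreated libraries. Of the weakest quintile of peaks of untreated replicates 1, 2 and 3, a mean of 49.9, 30.4 and 37.3% were found in another untreated library, beside 2.30, 15.6 and 2.71% in the 1 h library of the same number. For the strongest quintile the shares were 98.6, 99.96 and 88.0% in another untreated library and 69.0, 90.9 and 69.0% at 1 h. In both quintiles of every replicate, fewer peaks were found at 1 h than in another untreated library. Every 1 h list was shorter than every untreated list, and a shorter list can hold fewer of these peaks. The quintiles were not compared at equal list length.

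Location followed the same order. Shared sites within 1 kb of the listed start of a protein-coding gene were called at 1 h in 20.7, 55.9 and 23.6% of cases in replicates 1 to 3 (1055 sites). Sites within 1 kb of another end of a gene, which may be a 3′ end or an unlisted start, were called in 30.2, 60.3 and 37.5% (802 sites). Those elsewhere in gene bodies were called in 39.2, 57.6 and 52.8% (3458 sites), and those between genes in 44.8, 63.1 and 57.6% (4783 sites). Replicates 1 and 3 thus separated gene starts from the rest widely, and replicate 2 hardly at all. Median untreated percentiles of enrichment of the 4 classes ran in the same direction, at 42.0, 57.4, 67.8 and 70.9. Within the weakest quintile of sites the mean share called at 1 h was 14.3 ± 20.1% at gene starts and 18.5 ± 11.9% between genes, and within the strongest quintile it was 83.3 ± 11.5% and 87.3 ± 6.52% (SD, n = 3 in each). In the 2 quintiles below the strongest the order of the means was the other way, at 51.4 ± 22.9 and 73.0 ± 16.2% at gene starts against 49.3 ± 9.97 and 67.1 ± 10.5% between genes. Replicate 3 did not share this order (37.8 against 54.2% and 68.5 against 71.1%). Replicate 2 did (77.8 against 55.8% and 91.0 against 75.0%), and replicate 1 by less (38.5 against 37.8% and 59.5 against 55.1%). The libraries were split: in the weakest quintile the shares at gene starts and between genes were 1.86 and 9.75% in replicate 1 and 3.53 and 13.7% in replicate 3, but 37.5 and 32.1% in replicate 2.

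**Figure D2:**
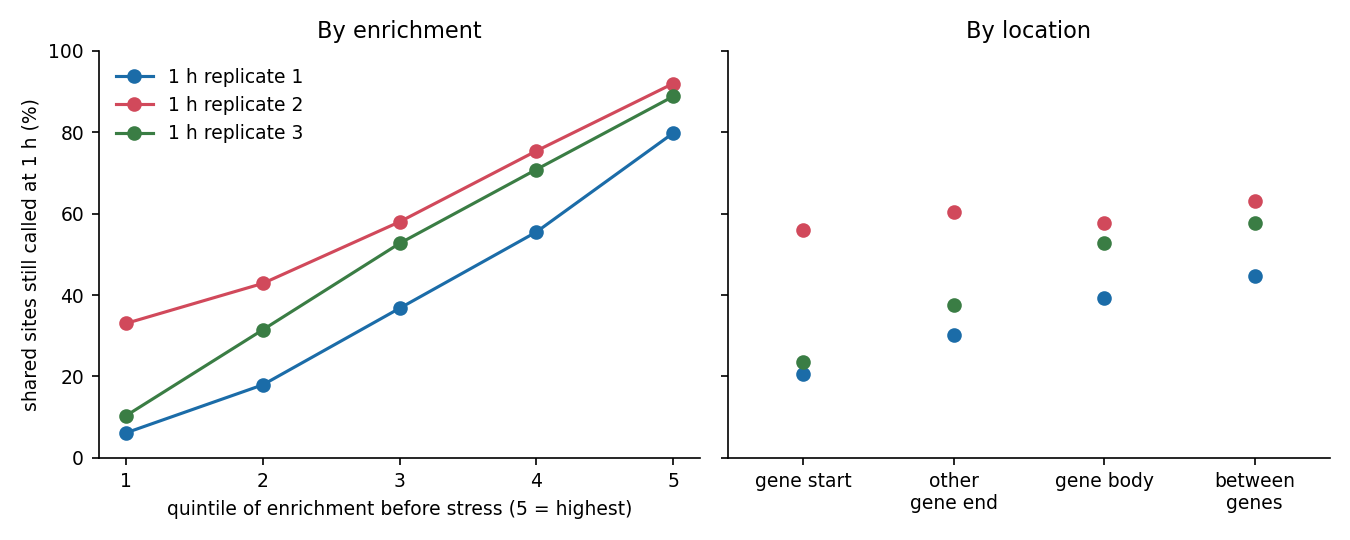
Percent of RAD21 sites shared by all untreated libraries that were called in each 1 h library, by quintile of mean untreated enrichment percentile (left) and by location relative to protein-coding genes (right); colours mark the 3 libraries at 1 h. The share climbed from 6.14 to 79.8% in replicate 1, from 33.0 to 91.9% in replicate 2 and from 10.3 to 88.8% in replicate 3.

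Counted over whole lists, the share of RAD21 peaks within 1 kb of either end of a protein-coding gene was 17.4, 27.4 and 10.5% untreated and 9.12, 20.6 and 8.46% at 1 h. It was lower at 1 h in each replicate, but the groups overlapped. The difference of -5.67 percentage points was within their spread in a test that does not pair replicates (exact permutation p = 0.5, 2-sided). The share of peaks with their summit in a Pol II region of both untreated Pol II libraries was 27.7, 34.4 and 22.4% untreated and 21.2, 29.6 and 19.9% at 1 h (difference -4.58, exact permutation p = 0.4, 2-sided). Single libraries moved both: the differences were -1.19 and -1.49 points without untreated replicate 2, -9.65 and -7.46 without untreated replicate 3, and -9.63 and -7.57 without 1 h replicate 2. Without 1 h replicate 3 they were -3.54 and -2.77. Shared sites overlapping a Pol II region in both untreated Pol II libraries were called at 1 h in 44.8 ± 13.0% (SD, n = 3). Those outside any Pol II region were called in 52.8 ± 9.39% (SD, n = 3). Median untreated percentiles of these 2 classes were 61.0 and 68.6. Within quintiles of enrichment, weakest first, the mean shares were 16.1, 29.0, 46.5, 67.0 and 86.9% with Pol II. Without it they were 17.0, 31.5, 48.5, 68.6 and 86.6%.

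RAD21 peaks that were called at 1 h lay mostly at CTCF sites. Peaks overlapping a CTCF site of all 3 untreated CTCF libraries made up 81.2, 76.1 and 73.9% of the untreated RAD21 lists and 97.0, 88.0 and 96.7% of the 1 h lists. The groups did not overlap, and the means of 77.1 ± 3.74% and 93.9 ± 5.15% (SD, n = 3 in each) lay 16.8 points apart, with p = 0.1 in the 2-sided exact permutation test, the smallest possible. The difference went with the length of the lists: with the 4761 strongest peaks of each library the shares were 97.2, 94.0 and 98.7% untreated and 97.0, 96.2 and 98.7% at 1 h, a difference of 0.686 (exact permutation p = 0.8). Counted at CTCF sites of any untreated library, the difference was 3.40 points (exact permutation p = 0.1), and at CTCF peaks of the same condition and submission 7.51 points (exact permutation p = 0.3). Among shared sites, those at a CTCF site of all untreated CTCF libraries were called at 1 h in 52.99 ± 10.5% (SD, n = 3; 9352 sites). Those with CTCF in 1 or 2 of these libraries were called in 14.5 ± 13.0% (654 sites) and those with none in 7.25 ± 11.6% (92 sites, SD, n = 3 in each). Of the 92 sites without CTCF, 73 were lost, 19 partly kept and 0 kept in all libraries. The 3 classes also differed in median untreated percentile, at 68.9, 24.7 and 21.1.

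At most of the places where RAD21 was lost, CTCF remained called in at least 1 of the 1 h CTCF libraries. Of the 3271 lost RAD21 sites, 2744 (83.9%) had a CTCF peak in all 3 untreated CTCF libraries. At these 2744, a CTCF peak was called at 1 h in 93.2, 83.6 and 55.2% of cases in CTCF replicates 1 to 3. At 1426 of them (52.0%) CTCF was in all 3 of the 1 h CTCF libraries, at 931 in 2, at 227 in 1 and at 160 in 0. CTCF replicate 3 at 1 h, the shortest CTCF list, was the low value. The 1 h CTCF lists held 22018 to 35374 peaks and those of RAD21 4761 to 7843. The 2 proteins were not compared here at equal list length. At partly kept RAD21 sites CTCF was called in 99.7, 98.0 and 88.1%, and at kept ones in 100, 99.9 and 98.1%. Seen from CTCF, 57.1% of the 25596 sites in all untreated CTCF libraries were in all 1 h CTCF libraries and 5.85% in none. The share in all of them was 34.1% at sites without any RAD21 site, 52.3% at lost RAD21 sites, 87.2% at partly kept ones and 98.0% at kept ones. The RAD21 summit stood a median of 29 to 39 bp from the CTCF summit over lost, partly kept and kept sites and the 3 untreated libraries. Summits within 50 bp of each other were 72.3, 63.5 and 75.4% at lost sites and 77.4, 67.9 and 82.7% at kept ones.

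**Figure D3:**
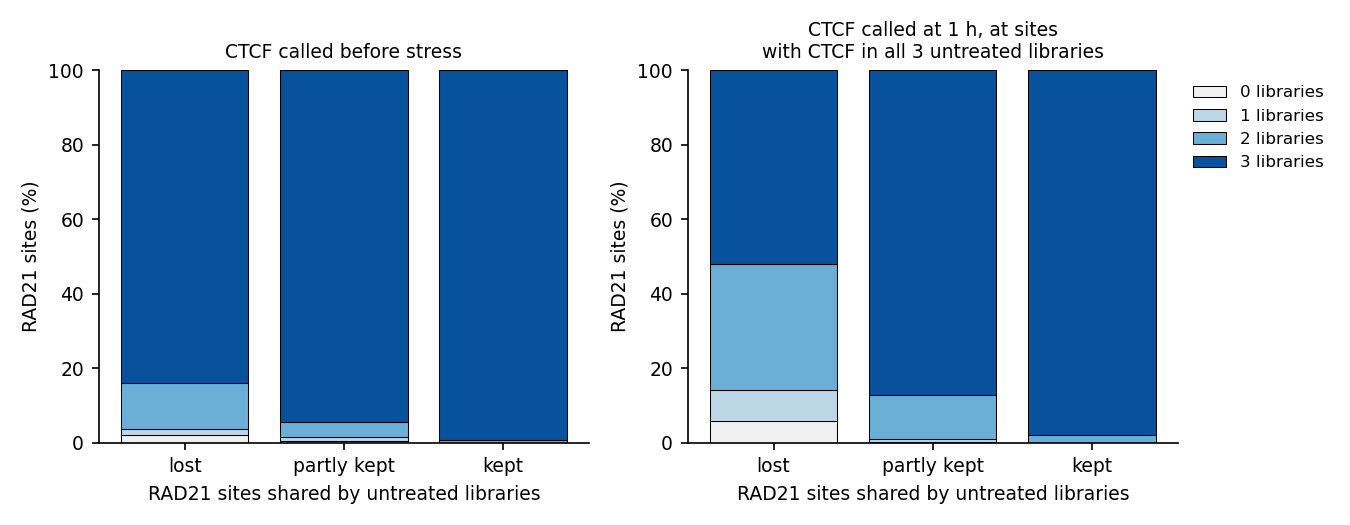
Percent of lost, partly kept and kept RAD21 sites with a CTCF peak in 0, 1, 2 or 3 untreated CTCF libraries (left), and, for those with CTCF in all 3, in 0 to 3 of the CTCF libraries at 1 h (right). At lost RAD21 sites CTCF was still in all 3 of the 1 h libraries in 52.0% of cases, at kept sites in 98.0%.

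The lost sites named next are among the 10 highest by rank within 1 kb of an end of a gene's whole span. A listed start inside a span, such as that of the lost PRDM1 site shown above, does not count as such an end. The highest was at RAMP1, a membrane partner of the calcitonin-like receptor (chromosome 2, 237858281 to 237858762), with fold enrichments of 21.6, 15.8 and 24.5 in untreated replicates 1 to 3 and no peak at 1 h. Its CTCF site was in all 3 untreated and 1 of the 1 h CTCF libraries. At RPS26, whose sequence is shown above, the untreated folds were 15.6, 13.1 and 16.1. At PKM, the pyruvate kinase that ends glycolysis (chromosome 15, 72199640 to 72200130), they were 14.2, 12.9 and 13.6, and CTCF stayed called in all 3 of the 1 h libraries. These 3 sites ranked high in every untreated list, RAMP1 between the 88.7 and 97.8 percentile. SDC1, which carries heparan sulphate on the surface of epithelial cells, had folds of 20.4, 15.9 and 11.7, and its CTCF peak too was in every 1 h library. ADORA2B, an adenosine receptor, had 13.0, 15.1 and 18.3. SNRPE, a core protein of the spliceosome, had 18.5, 11.05 and 22.965. HTR3D (a serotonin receptor subunit), CD300LG and SPMIP6 were also among them, with untreated folds from 12.9 to 24.0.

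The strongest kept sites near gene ends held peaks in every library at the top of each list. At DHX8 the folds were 41.1, 40.1 and 33.0 untreated and 22.95, 46.9 and 22.95 at 1 h, above the 99.6 percentile of all 6 lists. At STAT6, the transcription factor of interleukin 4 signalling (chromosome 12, 57112226 to 57112753), they were 34.6, 29.2 and 26.4 and then 15.4, 23.8 and 14.7. At both, 1 h replicates 1 and 3 lay below every untreated library, and at STAT6 so did replicate 2. The site of the growth factor gene FGF1 (chromosome 5, 142698958 to 142699544) had folds of 27.1, 19.7 and 37.7 and then 19.9, 27.2 and 20.7, so that the groups overlapped. CYB5R2, a cytochrome b5 reductase, had 37.5, 31.4 and 29.0 and then 12.1, 29.4 and 17.9. EBF1, a B lymphocyte transcription factor, had 21.5, 16.9 and 30.5 and then 12.9, 14.6 and 13.3, with every 1 h value below every untreated one. The others were NRSN2, RTP2, THPO (thrombopoietin), COPZ2 (a coatomer subunit) and GRM4 (a glutamate receptor). All 10 had CTCF in all 6 CTCF libraries. Fold is relative to each library's own background, so a lower fold at a kept site is a value within its list.

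Away from gene ends the highest-ranking lost site lay 26086 bases from SASH1, a signalling scaffold (chromosome 6, 148578131 to 148578628), with untreated folds of 28.0, 21.7 and 24.6. The site inside PEX14, a peroxisomal import factor (chromosome 1, 10530220 to 10530770), had 22.2, 36.0 and 25.3, up to the 99.6 percentile of untreated replicate 2. A site 406776 bases from its nearest gene ACTBL2 (chromosome 5, 57889588 to 57890138) had 27.6, 17.3 and 25.2 and lost its CTCF peak too, from 3 untreated libraries to 0 at 1 h. Sites inside TMEM163 and TMEM131 kept CTCF in all 3 of the 1 h libraries, with RAD21 folds of 22.96, 18.7 and 19.6 and of 19.6, 18.8 and 23.1 before stress. Of the 10 lost distal sites named, ACTBL2 alone had no CTCF peak at 1 h. The strongest kept distal site lay 69948 bases from SERBP1, an mRNA-binding protein (chromosome 1, 67500351 to 67500893), with folds of 36.3, 54.7 and 38.3 and then 24.7, 52.4 and 30.0. It was the top peak of untreated replicate 2 and of 1 h replicate 2. The site 62614 bases from MSX2, a homeobox gene (chromosome 5, 174793511 to 174794135), had 42.7, 40.5 and 31.3 and then 21.7, 49.2 and 24.4. The site near BARX2, another homeobox gene, was the top peak of untreated replicate 1, with a fold of 53.7, and had 20.6, 40.1 and 17.6 at 1 h.

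Both gained sites were weak. At RBM45, an RNA-binding protein gene (chromosome 2, 178112210 to 178112572), the 1 h folds were 3.98, 8.18 and 3.94, at percentiles of 5.77, 57.9 and 10.0. At SPECC1 (chromosome 17, 20009166 to 20009495) they were 3.58, 4.47 and 2.4047, down to the 0.468 percentile. Both carried CTCF in all 6 CTCF libraries.

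**Figure D4:**
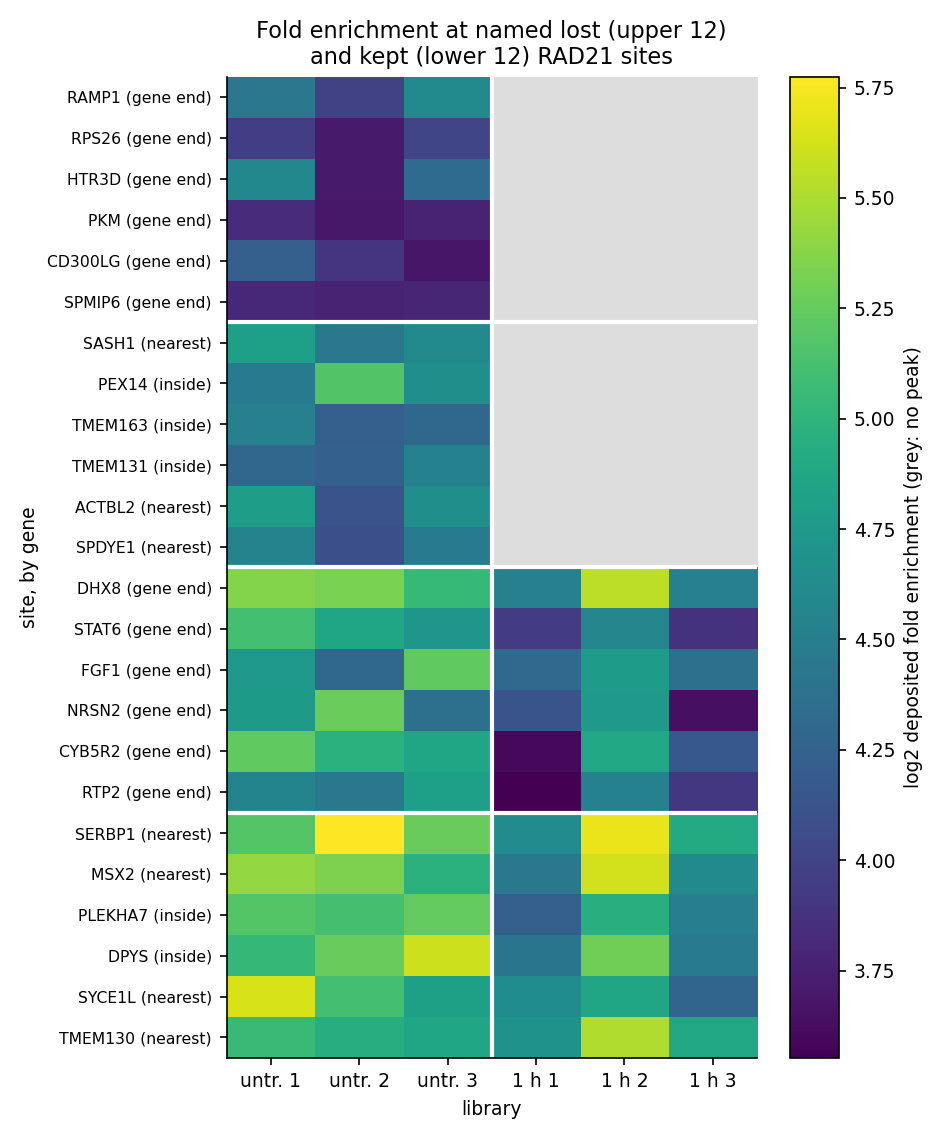
Deposited fold enrichment on a log2 colour scale at the 6 highest-ranking lost sites near gene ends, 6 lost distal sites, 6 kept sites near gene ends and 6 kept distal sites, in the 6 RAD21 libraries; grey means that no peak was called, and names give the gene at whose end, inside which or nearest to which the site lies. In every kept row 1 h replicate 2 was the highest of the 1 h libraries, for example 46.9 against 22.95 in both others at DHX8.

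Of the 1749 shared sites within 1 kb of the end of a protein-coding gene, 40.2% were lost, 39% partly kept and 20.8% kept, and gene lists are read beside these shares. Immediate early genes and those of MAP kinase signalling, which growth factors and stress switch on quickly, held 19 shared sites at 15 genes, of which 10 were lost, 9 partly kept and 0 kept. Of these 19, 0 were called in 1 h replicate 1, 9 in replicate 2 and 1 in replicate 3. At DUSP1, a phosphatase of MAP kinases (chromosome 5, 172770527 to 172771011), the untreated folds were 9.17, 6.51 and 4.58, there was no RAD21 peak at 1 h, and CTCF was in all 6 CTCF libraries. At JUND, an AP-1 subunit (chromosome 19, 18279349 to 18279809), they were 15.7, 23.2 and 15.0, with a fold of 8.88 in 1 h replicate 2 and no peak in the others. EGR2, a zinc finger factor, was in 1 h replicates 2 and 3, with folds of 5.38 and 2.31 after 10.5, 9.16 and 6.05 untreated. The median untreated percentile of the list was 33.4, below the 49.7 of all sites near gene ends, and 7 of its 19 sites had CTCF in every untreated library against 1413 of 1749.

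Luminal breast genes held 11 shared sites, 5 lost, 6 partly kept and 0 kept. Their median untreated percentile was 36.8, again below the 49.7 of all sites near gene ends, and 5 of the 11 had CTCF in every untreated library. At CDH1, which encodes E-cadherin (chromosome 16, 68738099 to 68738586), the untreated folds were 9.95, 7.36 and 6.14 and no 1 h library had a peak. MUC1, an epithelial mucin, had 9.21, 5.95 and 7.04 and was lost while its CTCF peak was in all 6 CTCF libraries. ELF3, an epithelial transcription factor, held both a lost site without any CTCF peak (4.78, 4.75 and 5.26) and a partly kept one with CTCF (12.9, 10.6 and 11.3 untreated, 4.03 in 1 h replicate 3). Targets of oestrogen and progesterone held 3 sites, lost at CCND1 (cyclin D1) and SIAH2 (a ubiquitin ligase) and partly kept at RARA (a retinoic acid receptor). The median untreated percentile of these 3 was 31.7.

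Genes of cell volume and osmolytes held 4 sites, with a median untreated percentile of 33.8 and CTCF in every untreated library at 1 of the 4. SLC6A6, the taurine transporter (chromosome 3, 14402145 to 14402584), had 8.15, 5.62 and 4.31 untreated and no peak at 1 h. NFAT5, the transcription factor of the tonicity response, had 5.42, 6.31 and 3.76 and then 3.56 in 1 h replicate 2 alone. SLC12A2 (the sodium, potassium and chloride cotransporter) and WNK1 (a kinase that regulates it) were likewise in 1 h replicate 2 alone, at 3.19 and 7.00. Integrated stress response and p53 targets held 4 sites, lost at DDIT4 (an inhibitor of mTORC1), partly kept at ASNS and CEBPB and kept at PLK2, a polo-like kinase, with 12.2, 11.1 and 7.14 and then 4.97, 9.40 and 4.34. Heat shock and chaperone genes held 0 shared sites.

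Cohesin genes and their regulators held 7 sites, 1 lost, 4 partly kept and 2 kept. The lost site lay at the start of CTCF itself (chromosome 16, 67562515 to 67563041), with folds of 6.11, 8.59 and 3.68. The kept sites were at PDS5B, a regulator of cohesin release (44.7, 49.2 and 21.9, then 11.2, 21.2 and 8.44), and at CTCFL, the germline paralogue of CTCF (20.1, 9.12 and 25.5, then 13.1, 17.5 and 17.0). STAG1 and STAG2, the alternative subunits that bind RAD21, were partly kept, STAG1 in 1 h replicates 2 and 3 and STAG2 in replicate 2. Cytosolic ribosomal protein genes held 6 sites, lost at RPS26, RPL4, RPL13 and RPS19, partly kept at RPL26 and kept at RPL10A (20.7, 23.7 and 15.6, then 6.81, 13.9 and 6.33). Cell adhesion genes held 6, of which SDC1, CTNNB1 (beta-catenin) and CDH1 were lost and CLDN1 (a tight junction claudin) was kept. Chromatin remodelling genes held 5, with a median untreated percentile of 36.6, among them lost sites at CREBBP and KDM6A and partly kept sites at ARID2 and SMARCC2. Glycolysis genes held 1, that of PKM.

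HOX clusters had 0 of 6 sites lost and 4 kept, at HOXD13, HOXC10, HOXB5 and HOXB13. At HOXB13, the most 5′ gene of its cluster (chromosome 17, 48724438 to 48724962), the folds were 13.9, 9.92 and 13.5 untreated and 10.96, 15.47 and 10.4 at 1 h, and the groups overlapped. At the kept site of HOXD13 (chromosome 2, 176085993 to 176086647) they were 25.1, 21.8 and 23.2 and then 4.96, 14.7 and 9.18, with no overlap. Clustered protocadherins held 4 sites, 1 lost (PCDHB2) and 3 partly kept. Genes of other lineages were kept in 3 of 5 cases, at CD8A, SPI1 and COL1A1, and partly kept at MAP2 and PDGFRA. The median untreated percentile was 79.3 for the HOX list, 88.2 for haematopoietic markers and 89.5 for fibroblast, neuronal and muscle markers, all above the 49.7 of the background. No list was tested, since the sites were few and the lists were chosen with earlier results of these data known.

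**Figure D5:**
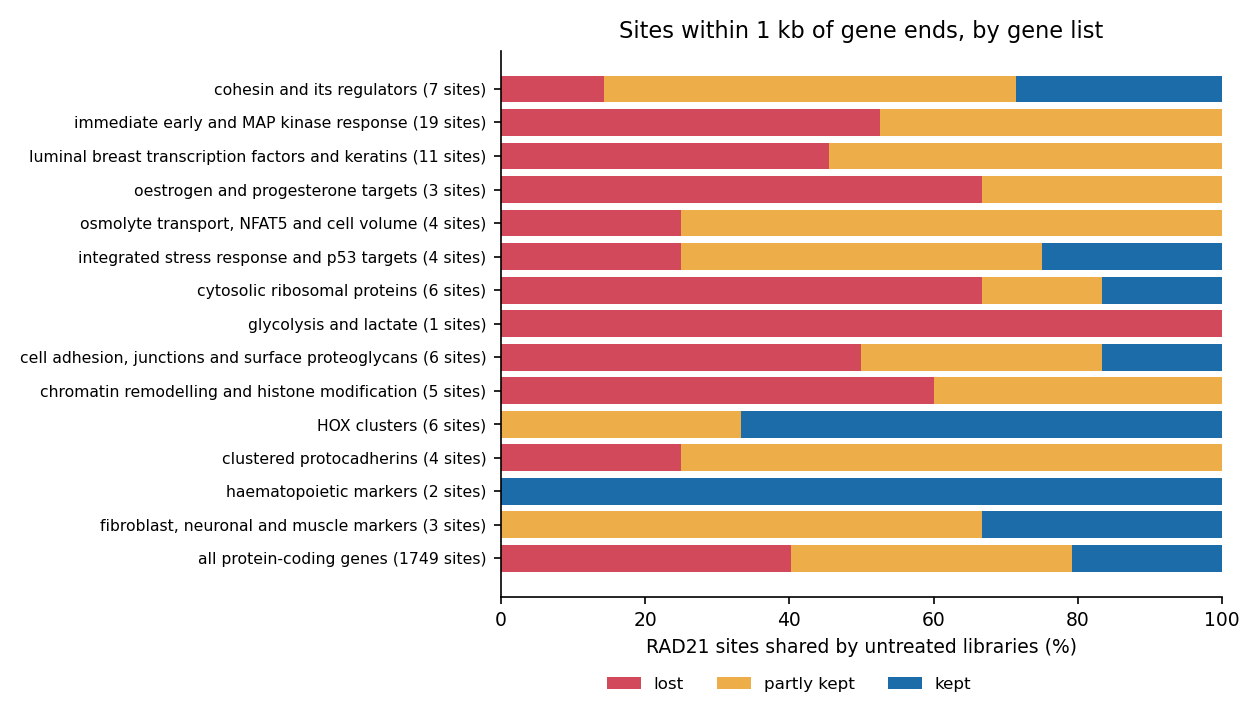
Percent of shared RAD21 sites within 1 kb of gene ends that were lost, partly kept or kept in each gene list, with the number of sites in brackets and all protein-coding genes at the foot. Immediate early, luminal, oestrogen, osmolyte, chromatin remodelling, protocadherin and glycolysis lists held 0 kept sites, and HOX clusters 4 of 6.

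The gene with most lost sites within its span was also the gene with most kept ones: GSE1, on chromosome 16, held 19 shared sites, of which 8 were lost, 5 partly kept and 6 kept. AGAP1, an Arf GTPase regulator of 638 kb on chromosome 2, held 5 shared sites and all 5 were lost, 3 of them with CTCF in every untreated library. GALNT2, a glycosyltransferase, lost 4 of 4, MCF2L (a guanine nucleotide exchange factor) lost 4 of 6 and TBCD, a tubulin chaperone, lost 4 of 7. Kept sites numbered 5 of 6 in NTM, a neuronal adhesion gene of 966 kb, and 4 of 5 in NAV2, 4 of 6 in ELMO1 and 4 of 5 in MRPL23. These genes were chosen for their counts, which are a description.

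The libraries of a group were themselves unequal. Of the peaks of an untreated library, 42.5 to 87.0% were found in another untreated library, and 50.9 to 89.1% of those of a 1 h library in another 1 h library, over 6 ordered pairs each. Of untreated peaks 25.0, 48.3 and 26.1% were found at 1 h in the library of the same number, a mean of 33.1 ± 13.1% (SD, n = 3), which was 65.2% with equal numbers of the strongest peaks. In the other direction, 78.2 to 99.0% of the peaks of a 1 h library were found in a given untreated library (median 89.7% over 9 pairs), so that the 1 h lists were nearly contained in the untreated ones. At the 3482 kept sites the rank order of fold enrichment was shared to a varying degree, with Spearman coefficients from 0.28 to 0.80 between libraries of a group and from 0.18 to 0.70 between groups. These coefficients run across sites, which are not independent replicates.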

How the data were processed

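RAD21 narrow peak lists of 3 untreated and 3 1 h NaCl libraries were read on chromosomes 1 to 22 and X (build hg38, per the submitters' processing notes, which name cutadapt, Bowtie2 2.2.6 and MACS2, and for the earlier submission DiffBind 2.4.6, DESeq2 and HOMER). For the roles of these tools, the threshold and the control, no source used here gives a statement. Each deposited list gives a score, a fold enrichment (a ratio to background), and −log10 p and −log10 q. These are the authors' values, and they served to order, filter and describe the peaks of 1 list at a time. Each summit is a position deposited by the authors.

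With scipy 1.17.1, pandas 2.3.3 and numpy 2.4.6 under Python 3.11.15, peaks overlapping by 1 bp were merged into sites. Library values were compared by exact 2-sided permutation. Site calling and tests were checked on simulated lists. No lists were identical (0 pairs). Genes came from RefSeq (GRCh38.p14), whose spans carry no strand.

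Named sites are up to 10 lost and 10 kept, near gene ends and distal, ordered by the fold enrichment percentile of their lowest-ranking library, all gained sites, the 5 genes with most lost and with most kept sites, and members of 15 gene lists (425 of 426 entries found), of which the text describes part (some are not reported here). Members and lists were chosen with earlier results of these data known. Alternatives were peak filters, equal list length, overlap rules, left-out libraries, submissions and a replicate block.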

Additional observations from a re-analysis of the deposited data

How the results depend on the processing

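Peak lists hold no reads, so a site absent from a list may be bound below the caller's threshold, and the unequal lengths of the lists limit every count. With the 4761 strongest peaks of each library, 357 sites were lost, 1902 kept and 227 gained, and the mean share of untreated peaks kept was 65.2%. Of 2862 shared sites, 12.5% were then lost and 66.5% kept. For 42 named sites, the number of untreated minus 1 h libraries with a peak was compared. It was unchanged at 38 with equal length, 40 with fold enrichment of at least 5 and 42 with −log10 q of at least 5. A site missing equally from both groups would also count as unchanged. The lost and kept sites among them were chosen for high ranks, so these filters could hardly remove them. Gained sites numbered 1 with fold of at least 5 and 7 with summits within 100 bases. Within the earlier submission 26 were gained. Within the later one (1 library against 1) 18431 sites were lost, 6500 kept and 124 gained. Leaving out 1 library at a time gave 3352 to 7630 lost sites, the highest without untreated replicate 2, 3483 to 4467 kept and 2 to 17 gained, the highest without untreated replicate 3. The cause of these shifts was not tested. Kept sites outnumbered lost ones in the main count (3482 and 3271), but lost ones were more with fold of at least 5 (2864 lost, 2694 kept) and without untreated replicate 2 (7630 and 3721). The differences in peak number, in the shares at CTCF, near gene ends and in Pol II regions, and against CTCF kept their sign in the alternatives run for them. Quintiles, location classes, CTCF at lost sites and gene lists were not recomputed under alternatives.

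Deviations of same-numbered libraries across sites correlated weakly (r = -0.045, 0.20 and 0.089), and those of other pairs ran from -0.20 to 0.15. The value for replicate 2 was the highest of all pairs. The replicates also ranked alike in both groups for the shares near gene ends and in Pol II regions. The labels state no pairs and the group tests use none, so differences between replicates count in their spread. The ratios set against CTCF and the share of peaks kept do join same-numbered libraries. With the replicate block the differences were the same by construction (-1.55 in log2 peak number, 16.8 points at CTCF, -5.67 near gene ends, -4.58 in Pol II regions, -0.91 against CTCF), each with an exact sign-flip p = 0.25, the smallest that 3 pairs allow.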

Other observations

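RAD21 was also mapped in cells returned to isotonic medium for 1 h after the salt, in lists of unequal length, and the classes of sites kept their order in each of the 3 libraries. Of the lost sites 15.9, 94.4 and 29.0% were called in recovery replicates 1, 2 and 3. Of the partly kept sites 36.7, 99.0 and 54.4% were called, and of the kept sites 68.5, 99.9 and 84.9%. In replicates 1 and 3 of recovery the kept sites were themselves incompletely called. The title of recovery replicate 3 names no triptolide while its tag does. At RAMP1, PKM, HTR3D and SDC1 the RAD21 peak was called in all 3 recovery libraries, and at RPS26 and CD300LG in 1.

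Chromosomes differed in how many shared RAD21 sites they lost. The share ran from 25.7% on chromosome 11 (162 of 631) to 44.04% on chromosome 13 (85 of 193), followed by 42.2% on chromosome 4 (113 of 268). On the X chromosome it was 31.1% (46 of 148). Over the 23 chromosomes the lost share and the number of protein-coding genes per Mb had Pearson's r = -0.37 and Spearman's rho = -0.48. For the kept share and the median untreated enrichment percentile they were 0.49 and 0.39. Both relations are given as a description over points that share the same 6 libraries.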
